A study of Sus scrofa with 10 samples.

Results

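The kidney is described here against the 8 other single tissues of a survey of pig RNA. The members compared are 1 library of the 10 in the series, the one labelled kidney, and the 8 libraries from ovary, lung, liver, spleen, heart, subcutaneous adipose tissue and 2 skeletal muscles, longissimus dorsi and psoas major. The remaining library, a pool whose label names kidney among its tissues, was left out of the comparison and is described at the end. All libraries came from Northeast Min pigs, a domestic breed, at an age of 60 days. No genotype, treatment, number of animals or part of the kidney (cortex or medulla) is given in the sources used here. Each tissue has 1 library, so no difference below has a replicate check, no p-value or error is given, and the comparison is of these libraries. Levels are FPKM, which scales fragments to gene length and library depth, and a difference is log2(FPKM + 1) in kidney minus the same value in the highest of the 8 other tissues, which understates the change of genes with low levels. A gene was called higher in kidney at a difference of 2 or more, a 4-fold difference on that scale.

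The kidney filters blood in the glomerulus, where podocytes hold back protein, and then works on the filtrate along the nephron. The proximal tubule takes back protein, sugars, amino acids, phosphate and bicarbonate and secretes drugs and organic acids. The thick ascending limb and the distal convoluted tubule take back salt, and in the collecting duct principal cells move water and sodium while intercalated cells move acid and base. The kidney also makes active vitamin D and, together with the liver, glucose.

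The label held against its markers. UMOD, the gene of uromodulin made by the thick ascending limb, stood at 2481 FPKM in kidney and between 0 and 0.277 in the 8 others. LRP2, the protein uptake receptor megalin, stood at 537 against 0.00897 to 1.63, and SLC34A1, the sodium phosphate carrier of the proximal tubule, at 526 against 0 to 1.63. AQP2, the water channel of principal cells, stood at 72.4 against 0 to 2.21. For all 4 genes kidney lay above every other tissue, and the ovary was the next tissue.

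The deposited table holds 25880 genes, of which 15637 reached 1 FPKM in at least 1 of the 9 tissues and were compared. Summed FPKM was lowest in kidney, at 292495, and reached 369254 in longissimus dorsi. Depth in reads was not given; the spacing of values in short genes put it at about 11520000 fragments in kidney and 11470000 to 31450000 in the others, an estimate that can be wrong by a factor of 2. Other ways of scaling the libraries moved the median gene of kidney against the mean of the others from 0.12 to between -0.14 and 0.23 (log2), so differences near 0 are not given a direction here. As these are bulk tissues, fewer cells of a type and less RNA per cell cannot be told apart.

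Of the genes compared, 208 were called higher in kidney (1.33%), and 2 were called lower by the same rule against the lowest of the others (0.0128%). Kidney was the highest tissue for 2003 genes (12.8%), and the median difference of all genes compared was -1.01. The called genes had a median of 44.6 FPKM in kidney, ranged from 3.40 to 3593, and together held 8.80% of all kidney FPKM. Of these, 78 stayed under 1 FPKM in all 8 other tissues and 33 had a difference of 5 or more. Just inside the threshold lay ANKS1A at 2.0005, GBA3 at 2.02 and SLC25A48 at 2.03, and just outside lay TCN2 at 1.9998, CDKL1 at 1.98 and SLC7A13 at 1.95. Over 13 lists of nephron genes, 199 distinct members were compared. Kidney was the highest tissue for 139 of them (69.8%) and 76 were called higher (38.2%), with a median difference of 1.15.

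**Figure D1:**
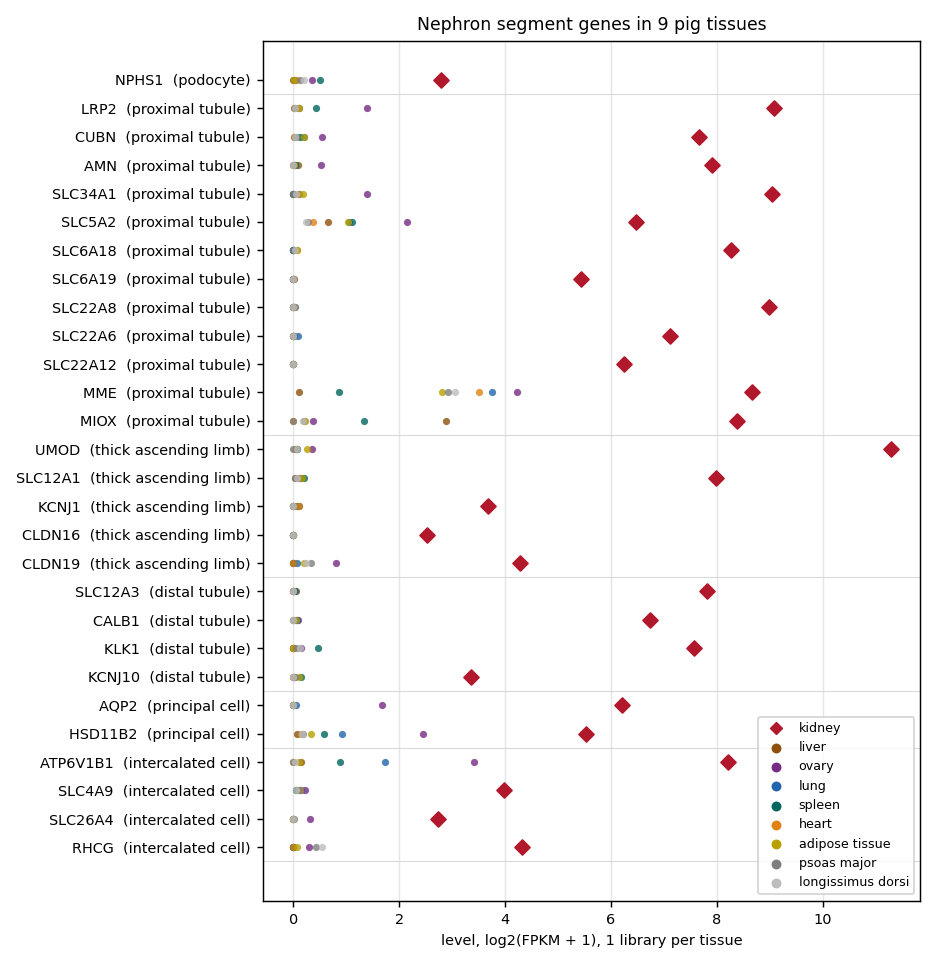
Level of 28 nephron genes as log2(FPKM + 1) on the horizontal axis, with 1 row per gene grouped by segment, red diamonds for kidney and circles for the 8 other tissues. All 28 were picked from the genes called higher in kidney, so kidney is the rightmost point in every row by choice of genes. Levels in kidney run from UMOD at 2481 FPKM to CLDN16 at 4.78 FPKM. Over the 199 nephron list members compared, kidney was highest for 69.8%.

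Podocyte genes were split. NPHS1, nephrin of the filtration slit, stood at 5.95 FPKM in kidney and at 0 to 0.414 in the others, a difference of 2.30. It was 1 of the 2 genes called among the 14 glomerular genes compared, and kidney was highest for 4. The basement membrane collagen chains COL4A3 and COL4A4 stood at 24.1 and 32.04 in kidney and at 28.5 and 45.6 in lung. The ovary was higher for WT1 (36.0 against 10.5), a transcription factor of podocytes. The median difference of the glomerular list was -0.72.

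Genes for the uptake of filtered protein were among the largest differences. CUBN, cubilin, stood at 202 FPKM against 0.0143 to 0.450, and AMN, the membrane anchor of cubilin, at 240 against 0 to 0.437, with differences of 7.13 and 7.39. LRP2 differed by 7.67. The endosomal chloride transporter CLCN5 was also called, at 21.9 against 0.0345 to 1.80. The adaptor DAB2 (189 FPKM, liver 64.2) and the chaperone LRPAP1 (235 FPKM, ovary 122) were highest in kidney but shared with other tissues. In all, 4 of the 8 genes were called and kidney was highest for 6, with a median of 2.28.

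Carriers of sugar, phosphate, sulfate and small acids had the highest median of any list, 4.0045, with 13 of 21 called and 19 highest in kidney. SLC34A1 differed by 7.65 and its relative SLC34A3 by 5.69 (74.98 FPKM against 0.0062 to 0.475). SLC5A12, a lactate carrier, stood at 174 FPKM and stayed at or under 0.0549 elsewhere. SLC5A2, the glucose carrier SGLT2 on chromosome 3 (17076852 to 17088968, minus strand), stood at 87.4 against 0.182 to 3.45. Its model overlaps RUSF1 on the opposite strand, also called at 29.4, and reads from the overlap could not be assigned because strandedness is not given. SLC5A1, the glucose carrier SGLT1, was lower, at 5.07 FPKM, and was not called. SLC4A4, which returns bicarbonate to the blood, stood at 134 against 0.607 to 4.54. The apical sodium proton exchanger SLC9A3 stood at 36.7 against 0.00486 to 0.475, and CLDN2, which makes the proximal junction leaky to cations, at 154 against 0 to 8.36. The glucose exit carrier SLC2A2 went the other way, with 8.67 in kidney and 36.9 in liver, and AQP1, the water channel of proximal tubule and vessels, was high in kidney (376) and in heart (114).

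Amino acid carriers were led by a neighbouring pair on chromosome 16. SLC6A18 (79278067 to 79292503) stood at 308 FPKM and at most 0.0472 elsewhere. SLC6A19 (79292962 to 79310904), the main carrier of neutral amino acids, stood at 42.3 and was listed at 0 in 7 of the 8 others and at 0.00703 in liver. CLTRN, the partner that brings SLC6A19 to the membrane, stood at 258 against 17.9 in liver. The SLC3A1 and SLC7A9 subunits of the cystine carrier were both called, at 116 against 1.04 to 6.81 and at 14.6 against 0.0526 to 2.50. SLC7A13 was listed at 0 in all 8 others but reached only 2.87 in kidney and missed the threshold. SLC36A2 was listed at 0 in kidney and stood at 14.5 in adipose tissue. In all, 7 of 15 were called and kidney was highest for 13.

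Organic ion carriers gave the next largest difference after UMOD. SLC22A8, the organic anion carrier OAT3, stood at 506 FPKM against 0 to 0.0192, a difference of 8.96, and SLC22A6, OAT1, at 138 against 0 to 0.0682, a difference of 7.02. The genes are neighbours on chromosome 2 (8781965 to 8805394 and 8809547 to 8817124, both plus strand). The urate carrier SLC22A12 stood at 74.7 and its neighbour SLC22A11 at 3.59, both listed at 0 in all 8 others. The drug exporter SLC47A2 stood at 170 against 0 to 0.426, while its relative SLC47A1 stood at 12.9 against 8.80 in heart. SLC22A2, the organic cation carrier OCT2, was called in kidney (25.6 against 0 to 0.153). SLC22A7, OAT2, was a liver gene here, with 130 in liver and 0.188 in kidney. ABCB1, a drug efflux pump, ranked 7 of 9 in kidney at 1.06 FPKM. In all, 7 of 17 were called and kidney was highest for 12.

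Enzymes and cadherins of the brush border, the microvillar surface of the proximal tubule, were called for 8 of 15 genes. The peptidases MME (404 FPKM, next ovary 17.7) and ENPEP (391, next ovary 17.6) were the most abundant of these. CDHR2, which links microvilli, stood at 46.4 against 0 to 0.115, and its partner CDHR5 at 116 against 22.4 in liver. Some peptidases of the list were nearly as high in another tissue. ACE, the angiotensin converting enzyme, stood at 126 in kidney and 109 in lung, and DPP4 at 129 in kidney and 126 in liver.

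Genes of the thick ascending limb were called in 10 of 16 cases, with a median of 2.61. UMOD (chromosome 3, 25473162 to 25492276, plus strand) had the largest difference of all genes, 10.92. Its neighbour PDILT, a protein disulfide isomerase relative known from testis, stood at 5.65 against 0 to 0.146. SLC12A1, the furosemide sensitive salt carrier, stood at 252 against 0.0184 to 0.153. The potassium channel KCNJ1 stood at 11.7 and the chloride channel subunit BSND at 7.02. The magnesium and calcium claudins CLDN16 (4.78) and CLDN19 (18.6) were called, and CLDN14, which blocks that route, was listed at 0 in kidney and stood at 28.2 in liver. EGF stood at 109 against 24.5 in longissimus dorsi. Of 13 claudins compared, 4 were called, namely CLDN2, CLDN10, CLDN16 and CLDN19 (30.8%).

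Distal tubule genes were called in 5 of 18 cases. SLC12A3, the thiazide sensitive salt carrier, stood at 225 FPKM against 0 to 0.0302, a difference of 7.77. The protease KLK1 stood at 189 against 0 to 0.379, and the calcium buffer CALB1 at 105 against 0 to 0.0615. KCNJ10, the basolateral potassium channel, stood at 9.26 against 0 to 0.104. The kinases that regulate SLC12A3 were broad: WNK1 stood at 68.3 in kidney and 34.5 in lung, WNK4 at 31.6 and 15.04 in ovary, and neither was called. The magnesium channel TRPM6 stood at 9.65 in kidney and 10.03 in ovary.

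Principal and intercalated cell genes differed in how much other tissues shared them. For principal cells, 2 of 12 were called, AQP2 and HSD11B2 (45.0 against 0.0482 to 4.47), the enzyme that keeps cortisol off the mineralocorticoid receptor. The HSD11B2 model overlaps ATP6V0D1 on the opposite strand, and reads from the overlap could not be assigned. The sodium channel subunits were shared with lung: SCNN1A stood at 25.6 in kidney and 17.7 in lung, SCNN1G at 12.5 and 4.18, and SCNN1B at 9.52 with 8.21 in ovary and 8.01 in lung. AQP3 was higher in adipose tissue (35.2) than in kidney (16.4), and AQP4 stood at 0.0299 in kidney against 42.6 in psoas major. For intercalated cells, 10 of 18 were called and kidney was highest for 17 (14 under median-of-ratios and quantile scaling). The chloride bicarbonate exchangers SLC26A4, pendrin (5.66 against 0 to 0.246), and SLC4A9 (14.7 against 0.0327 to 0.171), the ammonia channel RHCG (19.0 against 0 to 0.452) and the carbonic anhydrase CA12 (93.7 against 0.0171 to 1.45) were among them. SLC4A1, which kidney shares with red cells, stood at 7.21 in kidney and 9.08 in spleen.

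The V-type proton pump, the acid pump of intercalated cells and of lysosomes everywhere, differed between paralogues. Its B subunit gene ATP6V1B1 stood at 294 FPKM in kidney and at most 9.72 elsewhere (ovary), and the broadly used ATP6V1B2 at 19.97 in kidney against 7.05 to 45.1. ATP6V0D2 stood at 18.3 against 0 to 0.412, while ATP6V0D1, whose model overlaps HSD11B2, stood at 48.2 against 9.45 to 35.7. ATP6V0A4, the kidney form of the membrane subunit, was equally high in adipose tissue (25.7) and kidney (26.5) and stayed at or under 5.01 in the others. Of the 20 pump genes compared, ATP6V1B1 and ATP6V0D2 were the 2 called, although kidney was highest for 13. Some of the 13 were near ties that are given no direction, such as ATP6V0C (0.0135), ATP6V0A4 (0.0423) and ATP6V0B (0.0490). ATP6V1B1 exceeded ATP6V1B2 within kidney, and the reverse held in each of the 8 other tissues.

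Genes of the sodium potassium pump, which powers tubular transport, were called in 1 of 9 cases, with a median difference of -2.80. Kidney was highest for 3 of the 9. The genes of the list summed to 1825 FPKM in kidney and to 55.9 to 441 in the others, so the median does not describe the summed level. The regulator FXYD2 was the gene called, at 900 FPKM (next lung, 13.1). The beta subunit gene ATP1B1 stood at 394 (next heart, 113), a difference of 1.80 that passed under quantile scaling (2.51). In all, 2 genes of the list were called under mean-sum scaling and 3 under quantile scaling. FXYD3 was listed at 0 in kidney and stood at 40.9 in lung.

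**Figure D2:**
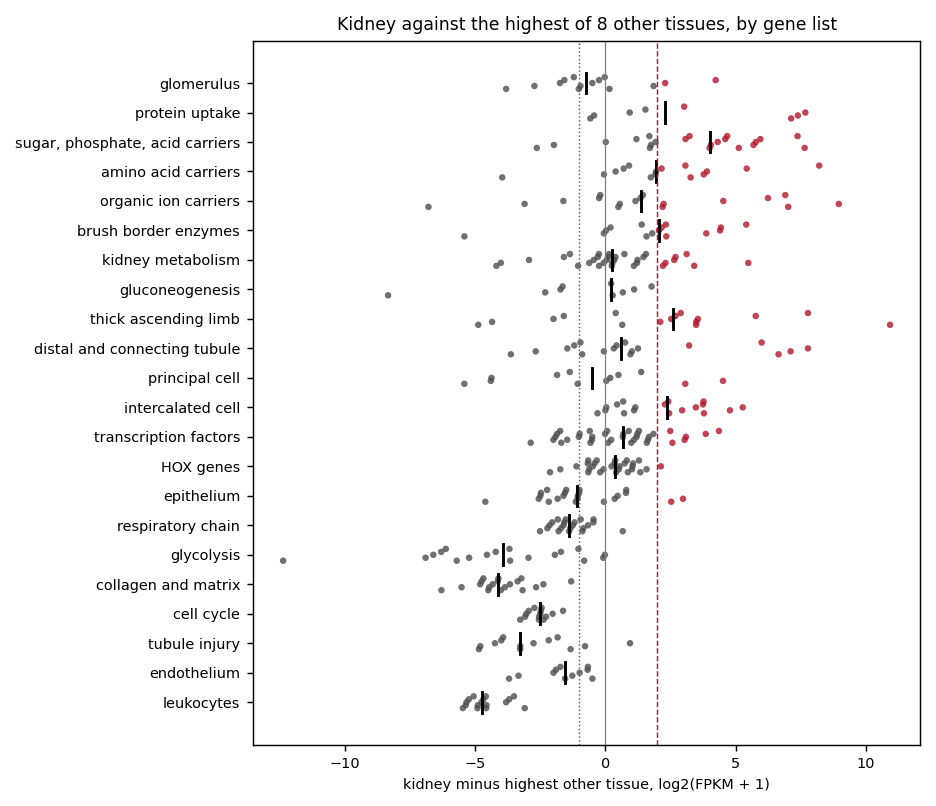
Difference between kidney and the highest other tissue, log2(FPKM + 1), with 1 point per gene and 1 row per list, red points at 2 or more, black bars at the list median, a dashed line at 2 and a dotted line at the median of all genes, -1.01. Proximal tubule carriers, thick ascending limb and intercalated cell lists lie to the right, and glycolysis, matrix, cell cycle and leukocyte lists lie to the left of the dotted line.

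Metabolic enzymes were shared with liver more than the carriers were. Of 32 enzymes of amino acid, sugar, creatine and carnitine metabolism, kidney was highest for 20 and 7 were called (3 under median-of-ratios scaling). Liver was the next tissue for 6 of the called genes and for 12 of the remaining 13 that were highest in kidney, and liver was highest for the other 12. The median difference was 0.26 and turned to -0.79 under median-of-ratios scaling, so the direction of the list as a whole depends on the scaling. MIOX, which starts the breakdown of inositol, was the clearest kidney enzyme, with 330 FPKM against 6.38 in liver and a difference of 5.49. BBOX1, the last enzyme of carnitine synthesis (95.5 against 8.06 in liver), and ACMSD of tryptophan breakdown (58.8 against 5.88) stayed called under all scalings. DAO, a D-amino acid oxidase, stood at 285 in kidney and 56.6 in liver, and DDC, which makes dopamine in the proximal tubule, at 213 and 33.3. Both dropped under the threshold with median-of-ratios scaling, at 1.203 and 1.544. GATM, the first enzyme of creatine synthesis, stood at 254 in kidney and 213 in liver. HPD, of tyrosine breakdown, stood at 26.0 in kidney and 488 in liver, and GLDC at 0.166 and 17.7.

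Of 9 genes of glucose production, kidney was highest for 5 as deposited and for 1 under median-of-ratios scaling. None was called as deposited, against 1 under quantile scaling and 3 without liver. The median difference of 0.23 turned to -0.89 under median-of-ratios scaling and to -0.08 under quantile scaling, so the list is given no direction. PCK1 stood at 1524 FPKM in kidney, 444 in adipose tissue and 344 in liver. G6PC1, the last step, stood at 298 and 186 in kidney and liver and at or under 0.995 elsewhere, and FBP1 at 216 and 99.5. The muscle form FBP2 stood at 0.061 in kidney and 340 in longissimus dorsi. ASS1, an arginine synthesis enzyme, was among the 10 most abundant genes of kidney, at 1745, with liver at 590.

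**Figure D3:**
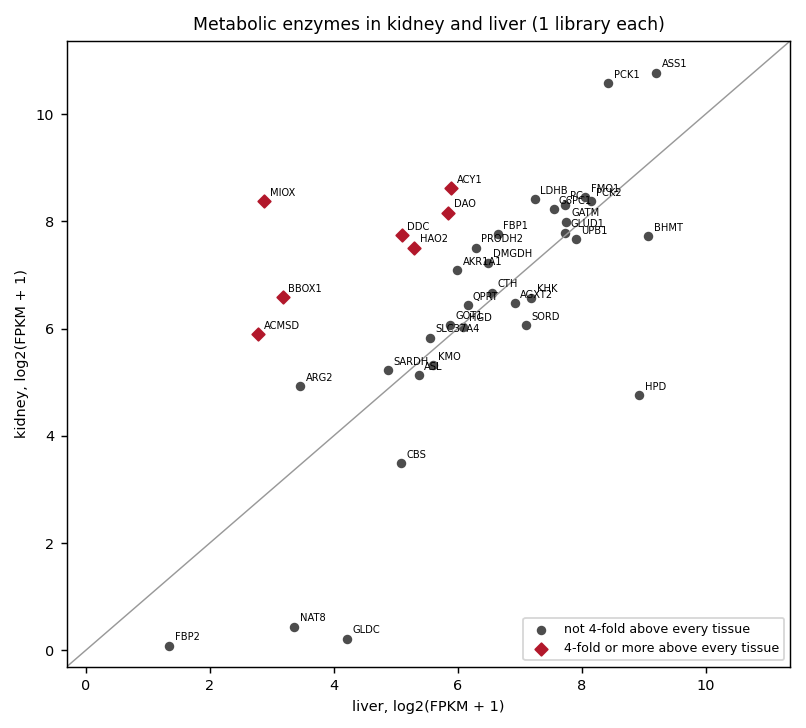
Level of metabolic and glucose producing enzymes in liver (horizontal) and kidney (vertical), both log2(FPKM + 1), with 1 point per gene, a diagonal of equal levels, and red diamonds for the 7 genes called higher in kidney. MIOX, BBOX1 and ACMSD lie far above the diagonal, most others lie close to it, and HPD, GLDC and NAT8 lie well below.

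Among mitochondrial and peroxisomal genes, none of 20 fatty acid oxidation genes, 29 peroxisome genes or 21 respiratory chain genes was called, and kidney was highest for 4, 8 and 1 (for 1, 2 and 0 under median-of-ratios scaling). Over all genes compared, 1.33% were called and kidney was highest for 12.8%, so the lack of calls in lists of this size does not set them apart. Catalase, CAT, stood at 903 in kidney and 1022 in liver. The respiratory chain list summed to 2903 FPKM in kidney and 8449 in heart. GPX3, the secreted glutathione peroxidase made by the proximal tubule, was the most abundant called gene, with 3593 in kidney, 833 in adipose tissue and 9.34 to 87.6 in the others. It was the only called gene among 19 antioxidant genes, and its difference of 2.11 fell to 1.95 under median-of-ratios scaling. FTL and FTH1, the ferritin chains, stood at 5733 and 3047, and FTL was the most abundant gene of the library.

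Hormone genes of the kidney were called in 6 of 16 cases. KL, klotho, the partner of the phosphate hormone receptor, stood at 36.5 against 0.0004 to 0.684. CYP27B1, which activates vitamin D, stood at 18.8 against 0.0645 to 1.75, and CYP24A1, which degrades it, at 29.2 against 0 to 0.0761. The vitamin D receptor VDR (18.7 against 0.0189 to 1.40) and the parathyroid hormone receptor PTH1R (104 against 1.13 to 6.03) were called with them. EPO, erythropoietin, stayed at 0.465 in kidney and did not reach 1 FPKM in any tissue.

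Transcription factors were called in 6 of 35 cases, and kidney was highest for 21. PAX2 (29.2 against 0 to 0.467), POU3F3 (15.4 against 0 to 0.137), TFCP2L1 (23.8 against 0 to 1.90), LHX1 (7.201 against 0 to 0.457) and TFAP2B (5.32 against 0 to 0.0608) were 5 of the 6, all factors of nephron or collecting duct development. An unnamed model overlaps POU3F3 on the same strand, so these values are not independent. HNF4A, a factor shared with liver, was high in both, at 94.3 and 50.03. SIX2 and EYA1, which mark nephron progenitors, were listed at 0 in kidney.

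HOX genes, which mark position along the body axis, were highest in kidney for 16 of 28 compared (14 under median-of-ratios and quantile scaling), and 1, HOXB8, was called (5.87 against 0 to 0.564, lost under both scalings). HOXA10 stood at 26.5 FPKM in kidney and 8.16 in psoas major, HOXD8 at 31.9 and 15.2 in longissimus dorsi, and HOXA9 at 15.9 and 8.28 in psoas major. HOXA11 stood at 1.67 in kidney and reached only 0.0493 elsewhere, and HOXD11 was found in kidney (2.104) and ovary (2.56) alone. The genes HOXA13, HOXB13, HOXC13 and HOXD13 were listed at 0 in kidney. Liver, heart and spleen were near 0 for most of the posterior genes.

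**Figure D4:**
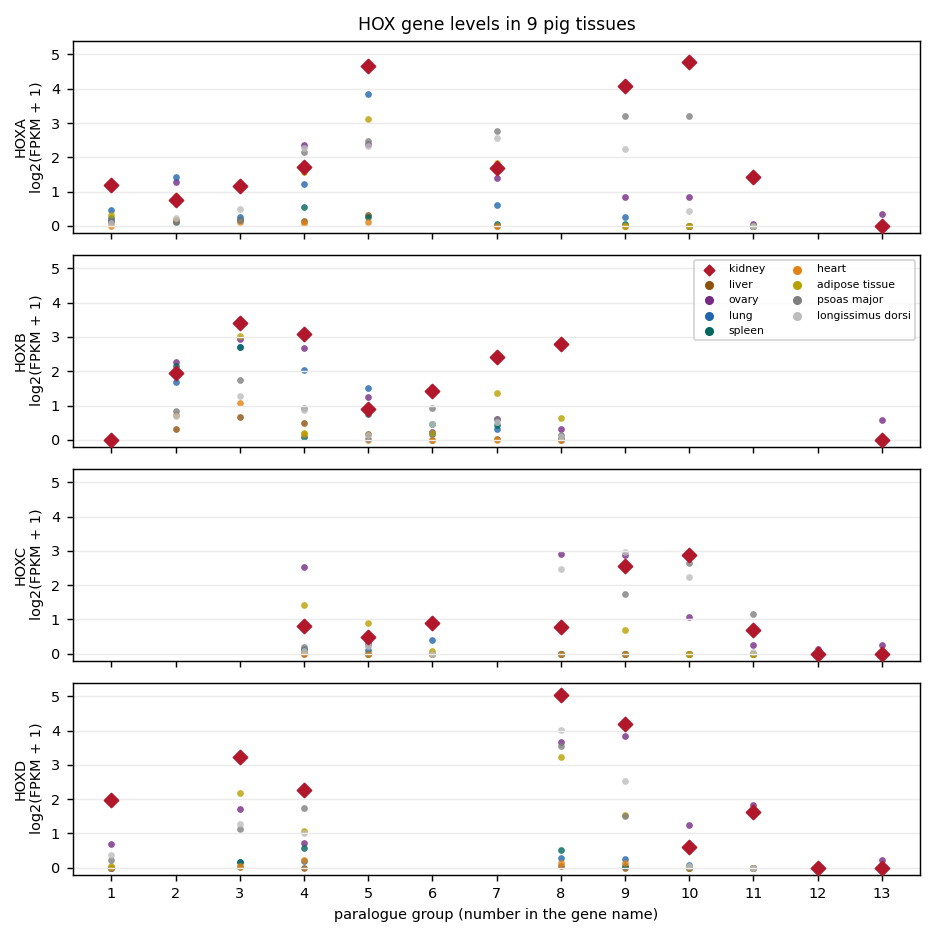
Level of HOX genes as log2(FPKM + 1) by paralogue group, with 1 panel per cluster, red diamonds for kidney and circles for the 8 other tissues. Kidney stands above the others at HOXA9, HOXA10, HOXB8 and HOXD8 and is at 0 at every gene of the last group.

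Genes of glycolysis, matrix and cell division were not led by kidney. Over all genes compared kidney was highest for 12.8%, a share that leaves few or none in lists of 9 to 19 genes. None of 18 glycolysis genes was highest in kidney (2 under mean-sum scaling and 1 under quantile scaling), and their median difference was -3.94. Longissimus dorsi was highest for 10 of the 18, and kidney was lowest for 2 as deposited. The list summed to 2136 FPKM in kidney, within 1247 to 67793 in the others. HK2 stood at 0.0404 and ENO3 at 1.07 FPKM in kidney. None of 19 matrix genes was highest under any scaling, with a median of -4.10. COL1A1 stood at 104 in kidney against 23.8 to 2284, and COL3A1 at 186 against 71.6 to 5000. None of 14 cell cycle genes was highest, and MKI67 stood at 1.00 against 0.258 to 9.87. Of 13 tubule injury genes 1 was highest in kidney, IGFBP7 (276, next ovary 142). HAVCR1 was listed at 0, LCN2 stood at 6.27 and VCAM1 at 15.9. Of 9 immediate early and heat shock genes compared, 1 was highest, IER3 (7.60, ovary 7.28), a near tie that is given no direction. FOS stood at 1.75 against 1.07 to 105.

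Of 22 epithelial genes, kidney was highest for 6, and CDH16, the kidney cadherin (378, next lung 47.0), and MAL (32.5, next ovary 4.80) were called. Among 15 cystic disease and cilium genes, PKHD1 was called beside UMOD, at 11.09 against 0 to 0.576, and kidney was highest for 8. The large PKD1 stood at 4.47 and ranked 8 of 9.

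None of the 88 marker genes of other cell types compared was highest in kidney under any scaling. Several of these lists mark cells of a tissue among the 8 others, namely fat, spleen, skeletal muscle and liver. For those lists kidney could hardly rank highest, so the count cannot show how much of such cells the kidney library held. No adrenal gene of 12 reached 1 FPKM, nor did any skeletal muscle gene of 9 except CKM at 1.61. Of 8 urothelial genes, UPK1B alone reached 1, at 2.30. The fat cell genes summed to 92.8 FPKM in kidney, within 58.0 to 10643 in the others, with 7 of 10 at 1 or more, ADIPOQ at 0.0175 and LEP at 0. The red cell genes summed to 143 (25.9 to 3240 in the others) and the leukocyte genes to 31.9 (23.6 to 1049). Endothelial genes, 11 of 11 at 1 or more, summed to 191 against 114 to 878. Smooth muscle genes summed to 162 against 55.9 to 1717. The hepatocyte plasma protein genes summed to 270 in kidney and 78272 in liver, with TF at 151, APOC3 at 51.6 and ALB at 0.146 in kidney, and FGA and APOH listed at 0. The part of these cells in the results above was not tested.

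The tissue with the next highest level varied among the called genes. Ovary was next for 68 of the 208 (32.7%), liver for 49 (23.6%), lung for 37, spleen for 17, adipose tissue for 13, heart for 11, longissimus dorsi for 4 and psoas major for 3. A further 6 genes were listed at 0 in all 8 others, among them SLC22A12, SLC22A11, CLDN16 and TMEM207. Of the 1795 genes that were highest in kidney without being called, ovary was next for 538, lung for 403 and liver for 272. Over all 208 called genes the median level was 0.584 FPKM in ovary, 0.340 in lung and 0.137 in liver. Leaving out the liver raised the called genes from 208 to 351, and leaving out the ovary raised them to 253. Over all genes compared, Spearman's rho of kidney was 0.762 with adipose tissue, 0.758 with liver and 0.723 with ovary, down to 0.673 with spleen, a description across genes that are not independent.

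**Figure D5:**
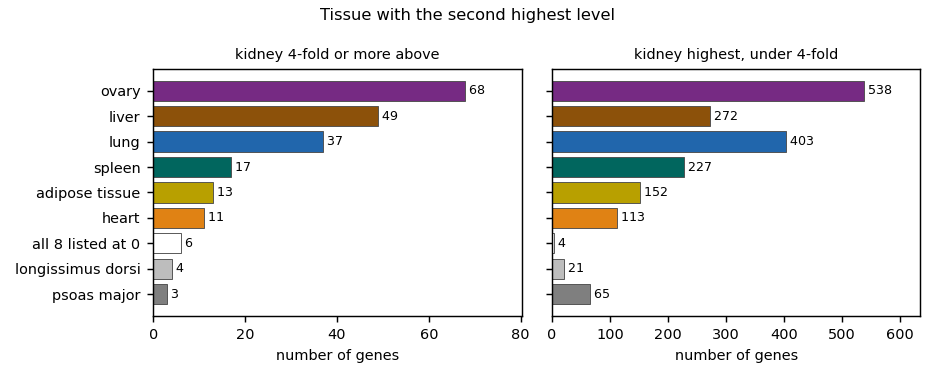
Number of genes (horizontal axis) by the tissue with the level next to kidney, for the 208 genes called higher in kidney (left) and the 1795 highest in kidney but not called (right). Ovary leads both panels, with 68 and 538 genes, and liver ranks above lung on the left and below it on the right.

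Solute carriers made up a large share of the kidney genes. Of 322 carrier genes compared, 37 were called (11.5%, beside 1.33% of all genes) and kidney was highest for 114. Of 9 aquaporins AQP2 and AQP6 were called, of 47 potassium channel genes KCNJ1, KCNJ10 and KCNK5, and of 23 cytochromes P450 only CYP27B1 and CYP24A1. None of 40 collagens or 84 ribosomal protein genes was called, which is close to the 1.33% of all genes. Adjacent genes accounted for 22 of the 208, in 11 pairs. Besides the pairs SLC6A18 with SLC6A19, SLC22A8 with SLC22A6, SLC22A12 with SLC22A11 and UMOD with PDILT, these included ATP6V0D2 with the carbonic anhydrase CA2 on chromosome 4. ATP6V0D2 (50694189 to 50749378) and CA2 (51191686 to 51211922) lie further apart than the members of those pairs. The pairs of SLC5A2, DAO, POU3F3 and SLC2A11 are overlapping gene models, so their members are not separate measurements.

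The 2 genes called lower were S1PR1 and an unnamed model listed at 0. S1PR1, a sphingosine phosphate receptor of endothelium and lymphocytes, stood at 0.507 FPKM in kidney and between 6.43 in liver and 39.8 in lung elsewhere. For comparison, the endothelial genes stood within the range of the others, with PECAM1 at 41.7 (22.3 to 168) and KDR at 20.4 (6.24 to 78.4) in kidney.

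In the pool, 166 of the 208 called genes reached 1 FPKM (79.8%). The pool lay between kidney and the highest other tissue for 120 of all 208 called genes and above kidney for none. Its level was a median 7.67% of that in kidney, with quartiles of 5.70% and 11.2%. UMOD stood at 158 in the pool, LRP2 at 29.1, SLC34A1 at 28.7 and AQP2 at 5.49.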

How the data were processed

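RNA was sequenced once in each of 9 tissues and a pool (TRIzol total RNA, TruSeq RNA kit, per the labels). TopHat2 2.1.0, StringTie 1.2.2 and Sscrofa11.1 are named, per the submitters' processing notes. The authors' deposited table gives 1 value per gene and library, read as FPKM, one of the units that the named StringTie writes; how the authors ran it before they deposited the FPKM values is not given in the sources used here. Its header names no unit, and FPKM was inferred from values that are not whole and sum to 292495 to 369254 a library. No counts were used, so depth is known only from value spacing and no test was run.

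Levels were compared as log2(FPKM + 1) with a pseudocount of 1, a minimum of 1 FPKM in at least 1 of 9 tissues and a threshold of 2. Ensembl identifiers gave 14857 genes a symbol, and others took it from a RefSeq gene with reciprocal overlap of 0.5 or more (1714 genes), 64.0% of genes in all. Coordinates are those of the deposited table. Of 108 named genes called higher, 36 have a model overlapping another.

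Named genes are members of 37 lists (641 symbols), the 15 largest differences, the 10 most abundant genes in kidney and among those called, the 10 lowest, the 3 on each side of the threshold, and adjacent called genes. The members and lists were chosen with earlier results of these data known. Alternatives varied pseudocount, threshold, minimum, scaling and tissues. On simulated data 8-fold and larger differences were all recovered, and 4-fold differences, at the threshold itself, in 8% of cases. The simulated differences were set only in genes averaging 10 FPKM or more, with the same small noise for every gene. At lower levels the pseudocount can keep larger differences under the threshold, as for HOXA11 and SLC7A13. Scripts ran under Python 3.11.15 (pandas 2.3.3, numpy 2.4.6, matplotlib 3.10.9). Some genes of the lists are counted in the totals but are not reported here.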

Additional observations from a re-analysis of the deposited data

How the results depend on the processing

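The 208 genes called higher became 128 with a pseudocount of 5, 533 and 112 at thresholds of 1 and 3, 883 against the mean of the others and 351 without liver. Under the 3 other scalings there were 168 to 226, and 155 of the 208 remained called under all 3. The 2 genes called lower became 13 and 0 with pseudocounts of 0.1 and 5, 11 and 0 at thresholds of 1 and 3, 4 under median-of-ratios and under quantile scaling, 214 against the mean, 5 without liver and 4 without heart, the last chosen after seeing the data. The 92 called list members became 140 at a threshold of 1 and 201 against the mean. The 49 called genes with liver next became 120, 21 and 302 at thresholds of 1 and 3 and against the mean. The 166 called genes at 1 FPKM or more in the pool became 412, 99 and 790 under the same settings and 305 without liver. The 22 adjacent called genes became 10 with a pseudocount of 5, 89 and 10 at thresholds of 1 and 3, 12 under median-of-ratios scaling, 168 against the mean and 48 without liver. No named gene called higher fell below 0 under another pseudocount or scaling. The median difference of the metabolic enzymes turned from 0.26 to -0.79 under median-of-ratios scaling, and that of the glucose production genes from 0.23 to -0.89 there and to -0.08 under quantile scaling. Of the named genes, 32 were no longer called with a pseudocount of 5, mostly genes under 20 FPKM such as CLDN16 and SLC26A4, and 19 under median-of-ratios scaling. The planned search of promoters for a motif was not run. No paired analysis was possible because each tissue has 1 library.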

Other observations

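Of the 208 genes called higher in kidney, 92 belong to a list, 99 have a symbol and are in no list, and 17 have no symbol. The genes in this section were chosen after their values were seen. No list of their kind was tested, so they are single genes and not a group result. VIL1, villin, which bundles actin in microvilli, stood at 58.4 FPKM against 0 to 2.69 in the 8 other tissues, and PLS1, a further bundling protein, at 36.3 against 0.0422 to 6.47. ESPN, espin, stood at 14.9 against 0 to 2.65. USH1C (17.2 against 0 to 0.903) and MYO7B (20.8 against 0 to 1.19), which hold the cadherins CDHR2 and CDHR5 at the microvillus tip, were called with these. The scaffold NHERF4 stood at 39.1 against 0 to 0.542.

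The nucleoside carriers SLC28A1 (8.59 against 0 to 0.363) and SLC28A2 (6.47 against 0 to 0.769), the enzymes PNP (125, next ovary 27.4) and CDA (53.4, next ovary 6.22), and DPYD (183, next liver 37.0), which starts pyrimidine breakdown, were all called. UPB1, the last enzyme of that breakdown, was not, with 202 in kidney and 239 in liver.

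Single genes with large differences included TINAG, an antigen of the tubular basement membrane, at 167 against 0 to 0.665, AOC1, which degrades histamine, at 151 against 0 to 3.02, and CRYL1, of glucuronate metabolism, at 524 against 8.52 to 22.7. NOX4, an oxidase abundant in kidney tubules, stood at 50.5 against 0.00916 to 2.83. HDAC6, a cytoplasmic deacetylase that is broadly expressed, stood at 124 in kidney and within 4.36 to 12.8 in the 8 others. TRPM5, a channel known from taste cells, stood at 21.4 against 0 to 1.46, and OCA2, a pigment gene, at 29.1 against 0 to 2.21. CEBPB stood at 6.03 in kidney and was listed at 0 in all 8 others and in the pool, while JUNB and IER2 were listed at 0 in every tissue, kidney included. A listed 0 for genes as widely used as these can be a failed estimate, so the CEBPB call may not be a difference between tissues. The mitochondrial ribosomal RNA model KEF22_r02 stood at 238 in kidney and at or under 3e-05 elsewhere, pool included. Every tissue makes this RNA, so the values outside kidney can also be failed estimates, although the model counts among the 208.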
